A study of Danio rerio with 12 samples.

Results

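Double embryos were zebrafish of the AB strain that were prdm1-/- and carried pbx2/4 morpholinos, antisense oligonucleotides against pbx2 and pbx4 that block translation or splicing. They were compared at 10 somites with controls, which were prdm1+/+ and carried a control morpholino. The 6 libraries, 3 a group, were chosen by group from the 12 of the series and covered every gene. The other libraries, prdm1 mutants (prdm1-/- with the control morpholino) and pbx2/4 morphants (prdm1+/+ with the pbx2/4 morpholinos), also 3 each, entered the same model. Morpholinos were given to fertilised eggs of 1 cell, so every group had been injected. RNA was taken from single whole embryos and pooled once each had been genotyped. Which mutant allele was used, how many embryos made up a pool and the morpholino doses are not given in the sources.

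prdm1a encodes a zinc-finger repressor that adaxial cells beside the notochord need in order to become slow muscle, and it also acts in neural crest and in Rohon-Beard sensory neurons. pbx2 and pbx4 encode TALE homeodomain proteins, which bind DNA with Hox proteins in the hindbrain and with Myod in muscle precursors. Slow and fast fibres differ in the myosins, troponins and calcium pumps they make, and slow fibres are the first to differentiate in the trunk.

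Counts totalled 11344674, 9413623 and 17236848 in the double libraries and 9703947, 9059663 and 16182215 in the controls, in the order of sets A, B and C. A set is a group of libraries whose column names have the same form, and it holds 1 library of each group. All values by library below follow that order. Levels are given as CPM, normalised read counts scaled by library size and TMM factor, which are not corrected for gene length and are compared only within a gene. A count of 1 was worth 0.0572 to 0.115 CPM over the 12 libraries. A gene was called where its adjusted p was under 0.05 in edgeR's quasi-likelihood test with the set as a term. "Rose" and "fell" are used only of called genes, and "without the set" gives the same test with no term for it. RNA came from whole embryos, so fewer cells of a type and less RNA in each cell cannot be told apart. The summed level of each gene list described below was above 0 in every double and control library.

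Of 18126 genes tested, 1688 (9.31%) rose and 1965 (10.8%) fell in double embryos. Without the set the counts were 154 (0.85%) and 256 (1.41%), and each of those 410 genes (2.26%, against 20.2% with the set) was also called, in the same direction, with the set. The change was at least 2-fold for 266 called genes that were higher (1.47%) and 329 that were lower (1.82%), and the median size of a called change was 0.48 on the log2 scale. All 3 double libraries lay above all 3 controls for 8.44% of genes and below them for 8.94%. Lack of overlap was a condition for naming the genes of largest change. For those genes it adds no evidence to the call. The median log2 fold change of all genes was 0.01, against which the medians of gene lists below can be read. Counts of list members called can be read against 9.31% higher and 10.8% lower, or 0.85% and 1.41% without the set. Some genes are shared between lists, so the counts of different lists are not independent. When 1 library was left out, 969 to 1397 genes rose and 1325 to 1673 fell, and when 1 set was left out, 545 to 1540 rose and 877 to 1827 fell. The count higher moved by over 1.5 times without the double library of set A (969) or C (1123) or the control of set A (1019) or C (1039).

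**Figure D1:**
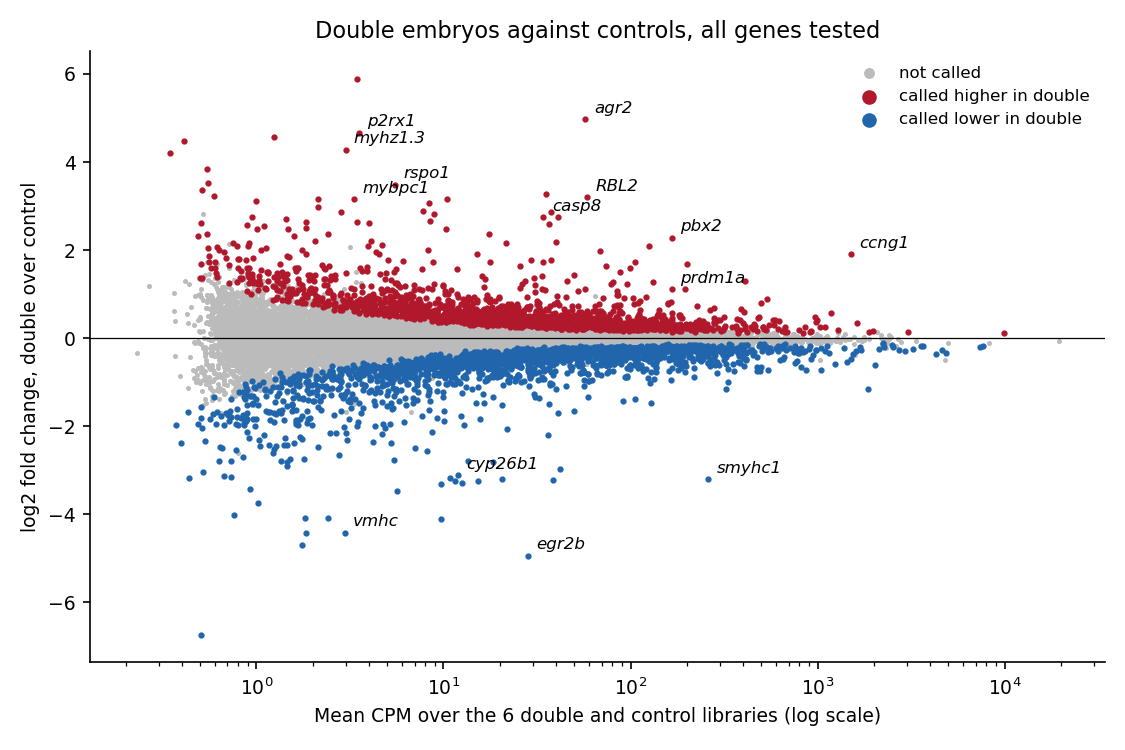
Each point is a gene, with its mean CPM over the 6 libraries on a log axis and its log2 fold change, double over control, on the vertical axis. Red and blue points are the 1688 genes called higher and the 1965 called lower. The labelled genes run from agr2 at 4.98 to egr2b at -4.94, and all called genes from 5.90 to -6.74.

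No targeted gene had less RNA in double embryos than in controls. prdm1a (ENSDARG00000002445) had 239, 218 and 225 CPM in the double libraries, against 106, 94.8 and 113 CPM in the controls (log2 fold change 1.12, SE 0.06, edgeR adjusted p = 7.32e-08). The groups did not overlap, and the double libraries were also above both single losses, by 0.71 on the log2 scale against prdm1 mutants (adjusted p = 3.26e-06) and 0.90 against pbx2/4 morphants (adjusted p = 8.34e-07), both from edgeR. pbx2 (ENSDARG00000019717) had 316, 232 and 280.0 CPM in double embryos and 67.7, 43.0 and 60.4 CPM in controls (log2 fold change 2.28, SE 0.08, edgeR adjusted p = 1.31e-09). pbx4 (ENSDARG00000052150), at 494, 475 and 355 CPM against 354, 351 and 284 CPM in controls, was higher by 0.41 (edgeR adjusted p = 8.03e-05, 0.221 without the set). Since the allele is not named and morpholinos act on translation or splicing, RNA here says nothing of how much protein was lost. The paralog prdm1b (ENSDARG00000053592) rose by 1.96 (SE 0.27, edgeR adjusted p = 0.000266). A second identifier with that name (ENSDARG00000078168) was not called, with a log2 fold change of -0.80 (SE 0.29, edgeR adjusted p = 0.0682). Of the Meis and Pknox genes, whose proteins pair with Pbx, pknox1.2 rose by 0.59 and pknox1.1 (ENSDARG00000018765) by 0.31, while meis3 fell by 0.75 and meis2.2 by 0.40 on the log2 scale. Of these 4, meis3 was also called without the set. The call of pknox1.1, pknox1.2 and meis2.2 was lost without at least 1 of the 6 libraries as well. A second identifier named pknox1.1 (ENSDARG00000078080) had a log2 fold change of 0.27 and was not called (edgeR adjusted p = 0.0621).

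Slow myosin heavy chain RNA fell in double embryos, to below either single loss. smyhc1, smyhc2 and smyhc3 encode slow myosin heavy chains and were summed, because near-identical copies share reads. Their sum was 46.3, 71.3 and 63.0 CPM in double embryos, against 578, 449.9 and 649.7 CPM in controls. All 3 double libraries lay far below the controls (log2 fold change -3.19, SE 0.21, edgeR adjusted p = 5.29e-07). The sum was also lower in double embryos than in prdm1 mutants, which had 171, 82.6 and 169 CPM (log2 difference -1.19, edgeR adjusted p = 0.00152), and than in pbx2/4 morphants, which had 529, 378 and 419 CPM (log2 difference -2.86, edgeR adjusted p = 4.68e-06). The departure of this sum from the added log2 effects of both single losses was -0.86 (SE 0.28). That departure was not called in edgeR (unadjusted p = 0.0083). The same term was called for 0 of 18126 genes in either direction, so the missing call does not show that the effects add. Taken singly the smyhc genes had log2 fold changes of -3.20, -3.22 and -3.18, each uncertain because of shared reads.

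Of 14 slow muscle genes tested, 10 fell and 2 rose (7 and 2 without the set), with a median log2 fold change of -1.02. The 3 smyhc genes, which share reads, are among the 10 that fell and among the 7 without the set. The gene named MYL4 (ENSDARG00000042245), a myosin light chain gene, had 3.57, 3.98 and 4.58 CPM in double embryos and 34.0, 32.1 and 45.1 CPM in controls (log2 fold change -3.20, SE 0.24, edgeR adjusted p = 1.40e-06). Its double libraries were also below prdm1 mutants by 1.27 on the log2 scale (edgeR adjusted p = 0.00587). The troponin genes tnni1b and tnnt2c fell by 2.54 and 1.15, and the myosin heavy chain gene myh7bb by 1.96. tnni1b is also made in heart, and the libraries do not part the tissues. Smaller falls were myl10 at -0.89, ryr1a at -0.73 and tpm3 at -0.28, called only with the set, and the call of ryr1a was lost without the double library or the control of set C. The members that went the other way were mybpc1 and a gene named MYH7B (1 of 3). mybpc1 (ENSDARG00000045560), which encodes slow myosin-binding protein C, had 8.62, 3.14 and 6.24 CPM in double embryos, against 0.823, 0.230 and 0.881 CPM in controls (log2 fold change 3.15, SE 0.23, edgeR adjusted p = 1.34e-06). It was above prdm1 mutants by 0.76 (adjusted p = 0.00894) and above pbx2/4 morphants by 2.17 (adjusted p = 4.30e-05) in the same edgeR model. MYH7B (1 of 3) rose by 1.22 (SE 0.16).

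Fast myosin heavy chain RNA in double embryos lay above that of controls and below that of prdm1 mutants. The 5 fast myosin heavy chain genes summed to 4.36, 9.12 and 11.8 CPM in double embryos, against 0.926, 0.344 and 0.567 CPM in controls (log2 fold change 3.82, SE 0.35, edgeR adjusted p = 7.90e-06). These values rest on 50, 87 and 207 counts in the double libraries and 9, 3 and 9 in the controls, and the groups did not overlap. prdm1 mutants had 20.6, 20.4 and 37.1 CPM, so that double embryos were lower by 1.64 on the log2 scale (edgeR adjusted p = 0.000105). pbx2/4 morphants had 0.723, 0.481 and 0.535 CPM, below the double embryos in every set.

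In the fast muscle list of 24 genes, 7 rose and 2 fell (4 and 1 without the set), with a median log2 fold change of 0.05. When 1 library or 1 set was left out, 4 to 7 rose and 1 to 3 fell. Of those that rose, 4 were myosin heavy chain genes, which may share reads and are not independent. All 5 together held 9, 3 and 9 counts in the controls. Single members therefore passed the filter on low counts only through groups where they were high, and could hardly be called lower. The call of myhz2, a gene of the 4, was lost without the control of set C. tnnc2, of fast troponin C, was the fall that was lost without the double library of set A or the control of set C. The fast myosin light chain gene myl1 (ENSDARG00000014196) had 12.7, 19.0 and 21.9 CPM in double embryos and 4.22, 5.05 and 8.44 CPM in controls (log2 fold change 1.57, SE 0.15, edgeR adjusted p = 1.52e-05). It was below prdm1 mutants by 0.78 and above pbx2/4 morphants by 2.65 on the log2 scale (edgeR adjusted p = 0.000964 and 1.32e-06). Another light chain gene, mylz2, had 3.57, 10.8 and 11.3 CPM against 4.01, 5.40 and 5.10 CPM in controls, a difference of 0.80 that was called with the set and not without it (edgeR adjusted p = 0.0259 and 0.309). In set A mylz2 was lower in the double library than in the control, and the call was lost without the double library or the control of set B or C. srl (ENSDARG00000018306), which encodes sarcalumenin of the sarcoplasmic reticulum, fell to 6.19, 7.75 and 6.70 CPM in double embryos, against 21.1, 28.4 and 24.3 CPM in controls (log2 fold change -1.83, SE 0.17, edgeR adjusted p = 7.79e-06). The double libraries for srl all lay below the lowest control. The fast muscle calcium pump gene atp2a1 had 12.6, 17.7 and 24.0 CPM in double embryos and 17.7, 14.8 and 26.5 CPM in controls, a log2 fold change of -0.13 (SE 0.19, edgeR adjusted p = 0.687). Yet atp2a1 was below prdm1 mutants by 1.37 and above pbx2/4 morphants by 1.92 on the log2 scale (edgeR adjusted p = 0.000211 and 0.000402).

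**Figure D2:**
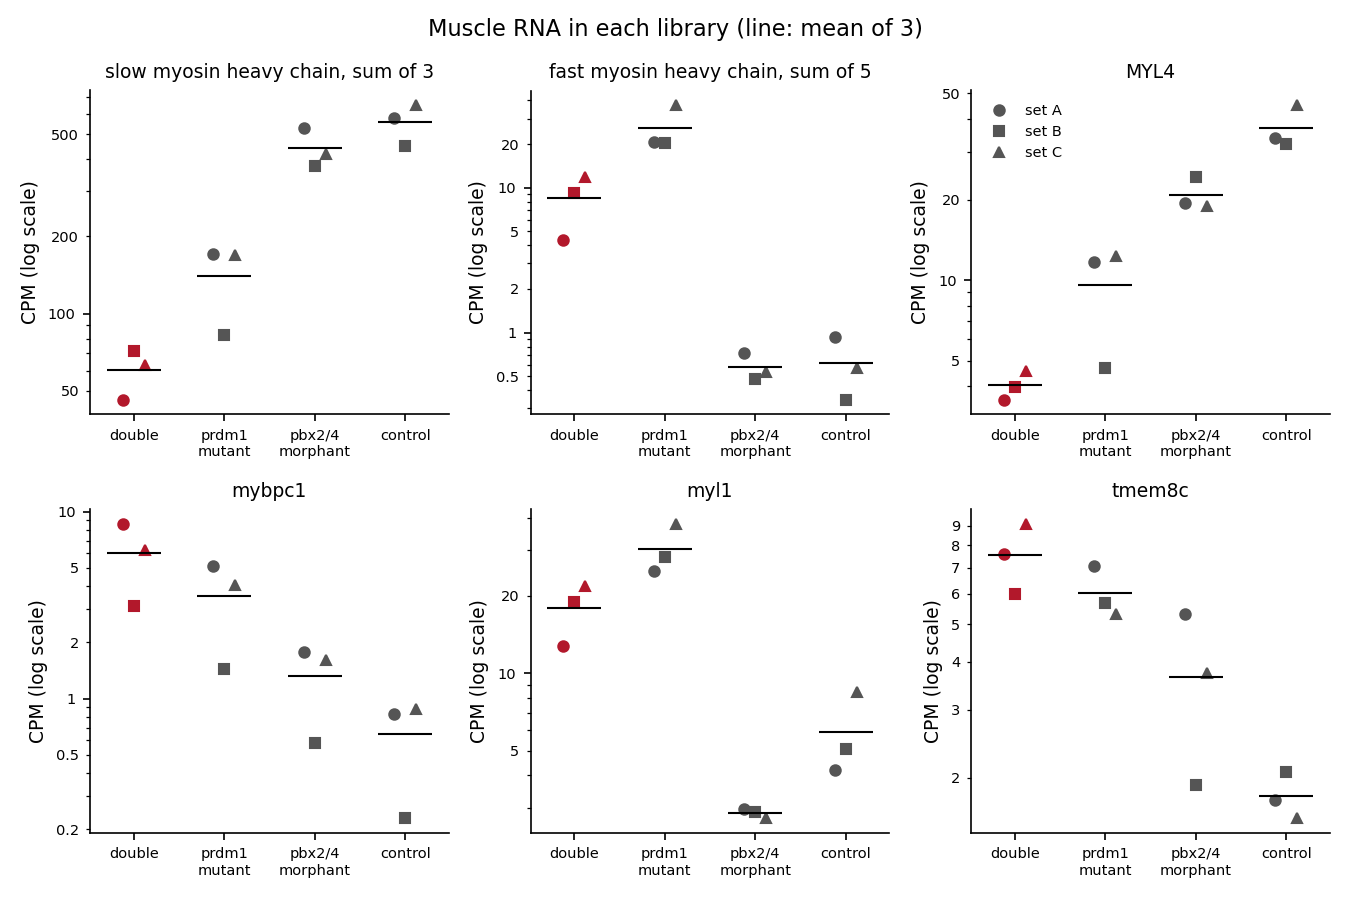
CPM on a log axis for muscle RNA in each library of double embryos, prdm1 mutants, pbx2/4 morphants and controls, with the symbol giving the set and the line the mean of 3 libraries. The slow sum and MYL4 are lowest in double embryos, the fast sum and myl1 lie between prdm1 mutants and controls, and the means of mybpc1 and tmem8c are highest in double embryos.

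Genes shared by fibre types fell more often than they rose. In the pan-muscle list of 48 genes, 22 fell and 3 rose (11 and 1 without the set), with a median of -0.40. The skeletal actin gene acta1b had 14.7, 22.1 and 21.3 CPM in double embryos and 57.7, 63.0 and 68.4 CPM in controls (log2 fold change -1.71, SE 0.14, edgeR adjusted p = 3.32e-06), and the groups did not overlap. Its paralogs actc1b and acta1a fell by 0.77 and 0.77, and reads may be shared among the actin genes. The titin genes fell by 1.39 (ttna) and 0.94 (ttnb, 0.297 as adjusted p without the set, edgeR). The junctophilin gene jph2 had 0.523, 0.314 and 0.229 CPM in double embryos, against 2.57, 2.30 and 2.83 CPM in controls (log2 fold change -2.91, SE 0.43, edgeR adjusted p = 0.000387). chrna1, for a subunit of the acetylcholine receptor at the neuromuscular junction, had 4.01, 3.67 and 4.64 CPM in double embryos, against 12.2, 13.5 and 17.6 CPM in controls (log2 fold change -1.82). For both genes every double library lay below every control. Other falls were smyd1a at -2.78, LMOD3 at -1.95, xirp1 at -1.33, actn3a at -1.06 and smyd1b at -0.82, where smyd1a and smyd1b encode a methyltransferase family of sarcomere assembly, LMOD3 a leiomodin and actn3a an alpha-actinin. The 3 that rose were unc45b, the myosin chaperone gene, by 0.65 (edgeR adjusted p = 5.45e-06, 0.00394 without the set), and musk and dok7, of acetylcholine receptor clustering, by 0.43 and 0.72, both called only with the set. With the set A or the set C control left out, unc45b alone was called higher.

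Myogenic regulators moved both ways. Of 33 tested, 5 rose and 10 fell (1 and 4 without the set), with a median of -0.09. Without the double library or control of set A, or the control of set C, 3 rose, and without the control of set C 6 fell. tmem8c (ENSDARG00000026001), listed as an alias of mymk, the gene of the fusion protein myomaker, had 7.58, 5.97 and 9.10 CPM in double embryos and 1.75, 2.07 and 1.57 CPM in controls (log2 fold change 2.12, SE 0.27, edgeR adjusted p = 0.000112). Every double library was above every control, and against prdm1 mutants the difference was 0.36 (edgeR adjusted p = 0.300). The bHLH factor genes split. myod1 had 137, 132 and 116 CPM in double embryos, against 88.1, 107 and 77.6 CPM in controls (log2 fold change 0.51, SE 0.10, edgeR adjusted p = 0.00298, 0.212 without the set). myog, the myogenin gene, had 18.6, 19.0 and 23.5 CPM in double embryos, against 24.5, 30.7 and 34.8 CPM in controls (log2 fold change -0.56, SE 0.16, edgeR adjusted p = 0.0246, 0.213 without the set). myf6 was lower by 2.503 on the log2 scale, with 7 counts over the double libraries and 37 over the controls. myf5 had a log2 fold change of -0.16 (edgeR adjusted p = 0.180). sox6, whose product represses slow muscle genes in fast fibres and which prdm1 represses, had 21.6, 14.5 and 15.2 CPM in double embryos and 14.7, 12.2 and 11.8 CPM in controls (log2 fold change 0.40, SE 0.12, edgeR adjusted p = 0.0268, 0.423 without the set). The calls of myog and sox6 were each lost in 4 of the 6 fits without 1 library. The homeobox gene lbx1b fell by 1.43 and eya1, of the Six-Eya cascade, by 0.72.

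Segmental hindbrain genes held some of the deepest falls. Of 29 hindbrain genes, 18 fell and 1 rose (7 and 0 without the set), with a median of -0.43. egr2b (ENSDARG00000042826), a zinc-finger gene of hindbrain rhombomeres, had 3.22, 0.105 and 1.83 CPM in double embryos, against 56.5, 52.0 and 55.8 CPM in controls (log2 fold change -4.94, SE 0.31, edgeR adjusted p = 3.48e-07). The double library of set B held 1 count of it. egr2a, its paralog, fell by 1.38. mafba, a segmental bZIP gene of the caudal hindbrain, had 16.99, 7.65 and 13.8 CPM in double embryos and 58.6, 66.1 and 54.2 CPM in controls (log2 fold change -2.21, SE 0.21, edgeR adjusted p = 8.86e-06). The groups did not overlap. The Eph receptor gene epha4l fell by 1.15 and the homeobox gene gbx1 fell by 1.35. For egr2b and mafba the differences from pbx2/4 morphants were 0.39 and 0.24 (edgeR adjusted p = 0.971 and 0.937). Against pbx2/4 morphants 0 hindbrain genes were higher and 0 lower in double embryos, where 0.695% and 0.497% of all genes were, and against prdm1 mutants 1 were higher and 15 lower, where 7.22% and 8.98% of all genes were. At an unadjusted p under 0.05 the counts against pbx2/4 morphants were 2 higher and 3 lower in edgeR.

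Hox genes set position along the body axis and were counted by paralog group. Of 14 genes of groups 1 to 4, 9 fell and 0 rose (5 and 0 without the set), with a median of -0.43. The count higher was also 0 at an unadjusted p under 0.05 in edgeR and by DESeq2. hoxa2b had 7.06, 11.7 and 8.07 CPM in double embryos and 17.7, 19.9 and 20.7 CPM in controls (log2 fold change -1.15, SE 0.12, edgeR adjusted p = 3.44e-05). hoxb2a, hoxa3a and hoxa1a fell by 1.21, 1.07 and 1.85, also with double libraries below controls. hoxb1a, also of the hindbrain, had 22.1, 18.5 and 22.7 CPM in double embryos, against 36.9, 25.1 and 45.4 CPM in controls (log2 fold change -0.76, SE 0.10, edgeR adjusted p = 0.000122, 0.138 without the set). Of 30 genes of groups 5 to 13, 2 rose and 2 fell (0 and 0 without the set), with a median of -0.02. The 30 included hoxd9a at 0.53 and hoxb10a at 0.22 on the higher side and hoxd13a at -1.05 and hoxb9a at -0.31 on the lower. The calls of hoxb10a and hoxd13a were lost in each of the 6 fits without 1 library, and that of hoxb9a in 3 of them. The difference between the lists was not tested.

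Retinoic acid, a signal made in the trunk, is cleared in the hindbrain by Cyp26 enzymes. cyp26b1 (ENSDARG00000077121) had 2.79, 1.15 and 3.20 CPM in double embryos and 20.2, 20.4 and 23.7 CPM in controls (log2 fold change -3.12, SE 0.19, edgeR adjusted p = 3.29e-07). The groups did not overlap. cyp26c1 fell by 1.08, while cyp26a1 rose by 0.26 (edgeR adjusted p = 0.0344, 0.689 without the set), a call lost in 4 of the 6 fits without 1 library. crabp1b, for a retinoic acid binding protein, fell by 2.42, and aldh1a2, for the main synthetic enzyme of the trunk, by 0.79 (edgeR adjusted p = 7.22e-06, 0.185 without the set). Of 27 genes of the pathway, 8 fell and 6 rose (3 and 1 without the set), with a median of -0.09.

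Eye, forebrain and midbrain-hindbrain boundary genes were also lower more often than higher. Of 36 eye and forebrain genes, 17 fell and 4 rose (7 and 1 without the set), with a median of -0.31. The homeobox gene vsx1 fell by 2.43. The retinal homeobox gene rx1 fell by 1.28 and the eye regulators pax6a and lhx2b by 0.78 and 0.90. foxg1a, of the telencephalon, had 15.9, 16.2 and 16.0 CPM in double embryos and 26.4, 28.8 and 33.4 CPM in controls (log2 fold change -0.89, SE 0.10, edgeR adjusted p = 5.43e-05). The genes that rose were six7 at 0.89, rx3 at 0.83, mab21l2 at 0.74 and lhx9 at 0.61, where rx3 is an eye field gene (edgeR adjusted p = 0.00634, 0.242 without the set). Of 21 boundary genes, 13 fell and 0 rose (2 and 0 without the set), with a median of -0.47. The count higher was 0 by DESeq2 and 1 at an unadjusted p under 0.05, and 8 fell without the double library of set A. Among them the Wnt ligand gene wnt1 had 4.18, 3.98 and 4.41 CPM in double embryos and 9.46, 9.07 and 7.81 CPM in controls (log2 fold change -1.04, SE 0.17, edgeR adjusted p = 0.000872). pax2a fell by 0.57, and the engrailed genes eng1a and eng1b by 2.38 and 1.36, the engrailed calls only with the set and lost without at least 1 library.

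Neural progenitor and neuron genes followed the same direction. Of 44 progenitor genes, 19 fell and 3 rose (7 and 0 without the set), with a median of -0.34. The homeobox genes gsx1 and dbx1b, of dorsal and intermediate progenitors, fell by 2.48 and 1.33, and the Sox gene sox21b by 0.99. Of 43 genes of primary neurons, 20 fell and 0 rose (10 and 0 without the set), with a median of -0.51. The count higher was 0 by DESeq2 and 2 at an unadjusted p under 0.05. isl1 (ENSDARG00000004023), a LIM homeobox gene of Rohon-Beard and motor neurons and of heart progenitors, had 9.58, 8.59 and 11.1 CPM in double embryos, against 21.4, 17.9 and 23.7 CPM in controls (log2 fold change -1.10, SE 0.11, edgeR adjusted p = 2.57e-05). The difference of double embryos from prdm1 mutants was 0.10 for isl1 (edgeR adjusted p = 0.654). The sensory neuron genes drgx and tlx3b fell by 1.91 and 1.84. elavl3, for a neuronal RNA-binding protein, had 91.6, 63.5 and 72.2 CPM in double embryos and 142, 102 and 122 CPM in controls (log2 fold change -0.69, SE 0.06, edgeR adjusted p = 2.29e-06, 0.121 without the set). For elavl3 the double libraries were below the controls of their own set, and below prdm1 mutants and pbx2/4 morphants by 0.28 and 0.46 on the log2 scale (edgeR adjusted p = 0.00361 and 0.000411). Its paralog elavl4 fell by 1.87, cntn2, for an axonal adhesion protein, by 1.23 and the tubulin gene tubb5 by 0.75.

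**Figure D3:**
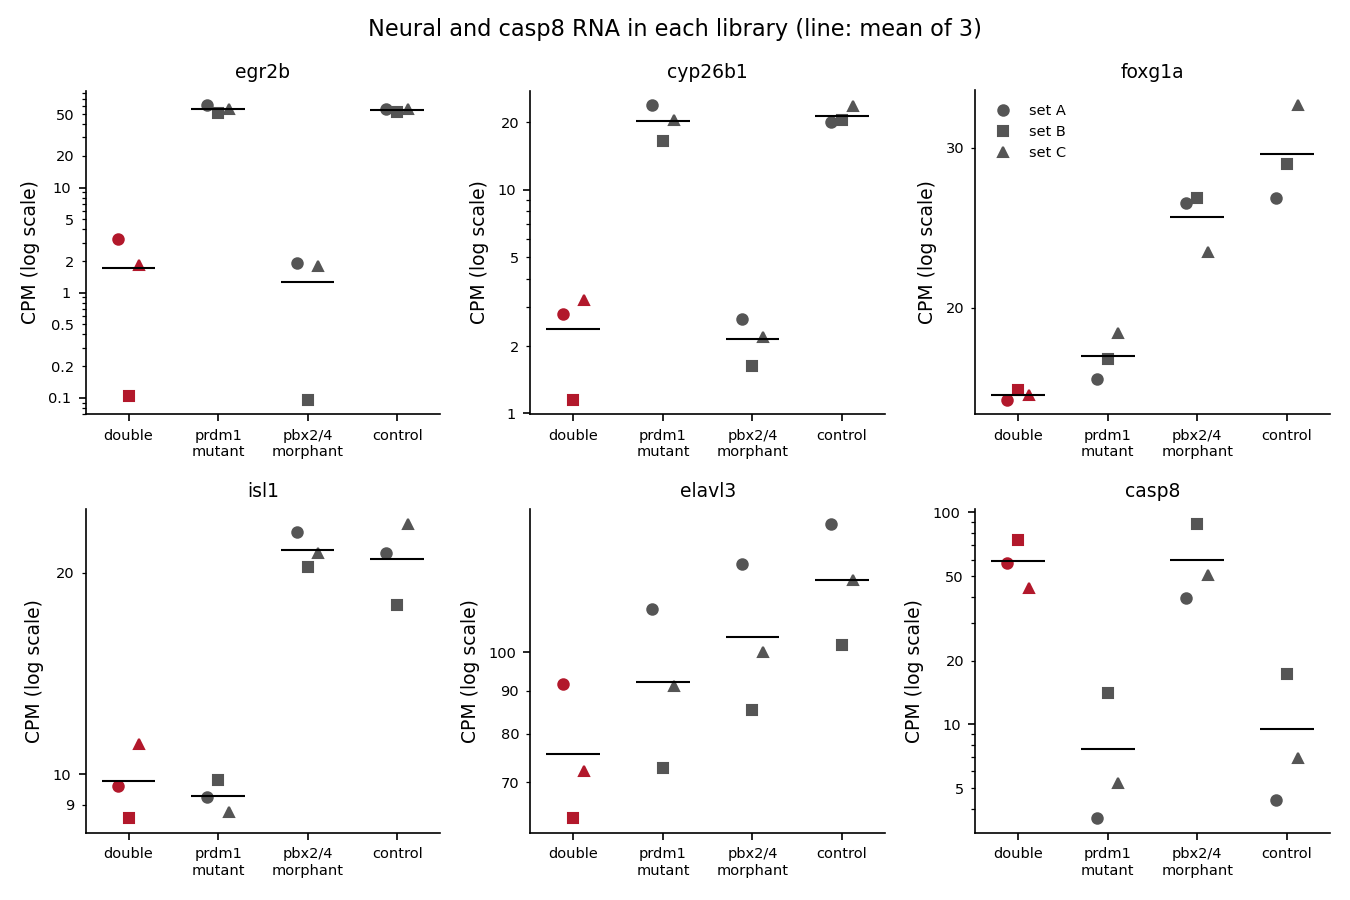
CPM on a log axis for egr2b, cyp26b1, foxg1a, isl1, elavl3 and casp8 in each library of double embryos, prdm1 mutants, pbx2/4 morphants and controls, with the symbol giving the set and the line the mean of 3 libraries. egr2b and cyp26b1 are low in both groups with the pbx2/4 morpholinos, isl1 is low in both prdm1-/- groups, foxg1a is lowest in double embryos, and casp8 is high in both groups with the pbx2/4 morpholinos, with the set B library the highest control.

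Ear, placode and neural crest genes fell more often than they rose. Of 35 otic and placode genes, 21 fell and 3 rose (7 and 0 without the set), with a median of -0.47. dlx4b, a homeobox gene of the preplacodal region, had 4.09, 5.66 and 3.49 CPM in double embryos and 8.33, 11.8 and 10.3 CPM in controls (log2 fold change -1.23, SE 0.15, edgeR adjusted p = 0.000111). cldna, a claudin gene, fell by 1.52, and stm (starmaker, an otolith matrix gene) by 1.02. Of 23 neural crest genes, 8 fell and 1 rose (1 and 0 without the set), with a median of -0.12. sox10, a crest specifier also made in the ear, had 24.6, 29.6 and 26.6 CPM in double embryos, against 39.0, 56.0 and 38.7 CPM in controls (log2 fold change -0.70, SE 0.11, edgeR adjusted p = 0.000520, 0.105 without the set). The crest specifiers foxd3 and snai2 were not called, with log2 fold changes of 0.21 and 0.15 (edgeR adjusted p = 0.301 and 0.186). twist3 fell by 2.13 and tfap2a by 0.33, and kita, the pigment cell receptor gene, rose by 0.59 (edgeR adjusted p = 0.000445, 0.0630 without the set).

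Heart genes fell more often than they rose. Of 22 tested, 10 fell and 2 rose (6 and 1 without the set, and 4 rose without the double library of set B), with a median of -0.23. vmhc (ENSDARG00000079564), the ventricular myosin heavy chain gene, had 0.348, 0.210 and 0.229 CPM in double embryos and 2.88, 6.54 and 7.56 CPM in controls (log2 fold change -4.42, SE 0.53, edgeR adjusted p = 7.90e-05). That is 10 counts over the double libraries and 205 over the controls. tnnt2a, for cardiac troponin T, fell by 2.15. For vmhc and tnnt2a the libraries do not part heart from other muscle. The heart list genes myl7, cmlc1 and myh6 had too few counts to be tested. tbx5a, a T-box gene of heart and fin fields, had 0.697, 0.734 and 0.401 CPM in double embryos, against 3.19, 2.98 and 2.52 CPM in controls (log2 fold change -2.29, SE 0.32, edgeR adjusted p = 0.000234). The groups did not overlap for tbx5a. nkx2.5 fell by 0.96, whereas tbx20 rose by 0.60 and hand2 by 0.71 (edgeR adjusted p = 2.34e-05, 0.0528 without the set). In blood, of 30 genes 3 fell and 1 rose (1 and 0 without the set). Neither count exceeded the share over all genes, where 10.8% fell and 9.31% rose. lcp1 (ENSDARG00000023188), the L-plastin gene of early macrophages, had 4.27, 1.05 and 4.75 CPM in double embryos and 30.7, 12.6 and 27.8 CPM in controls (log2 fold change -2.80, SE 0.16, edgeR adjusted p = 1.93e-07). The other genes of the blood list that fell did so by at most 0.49.

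**Figure D4:**
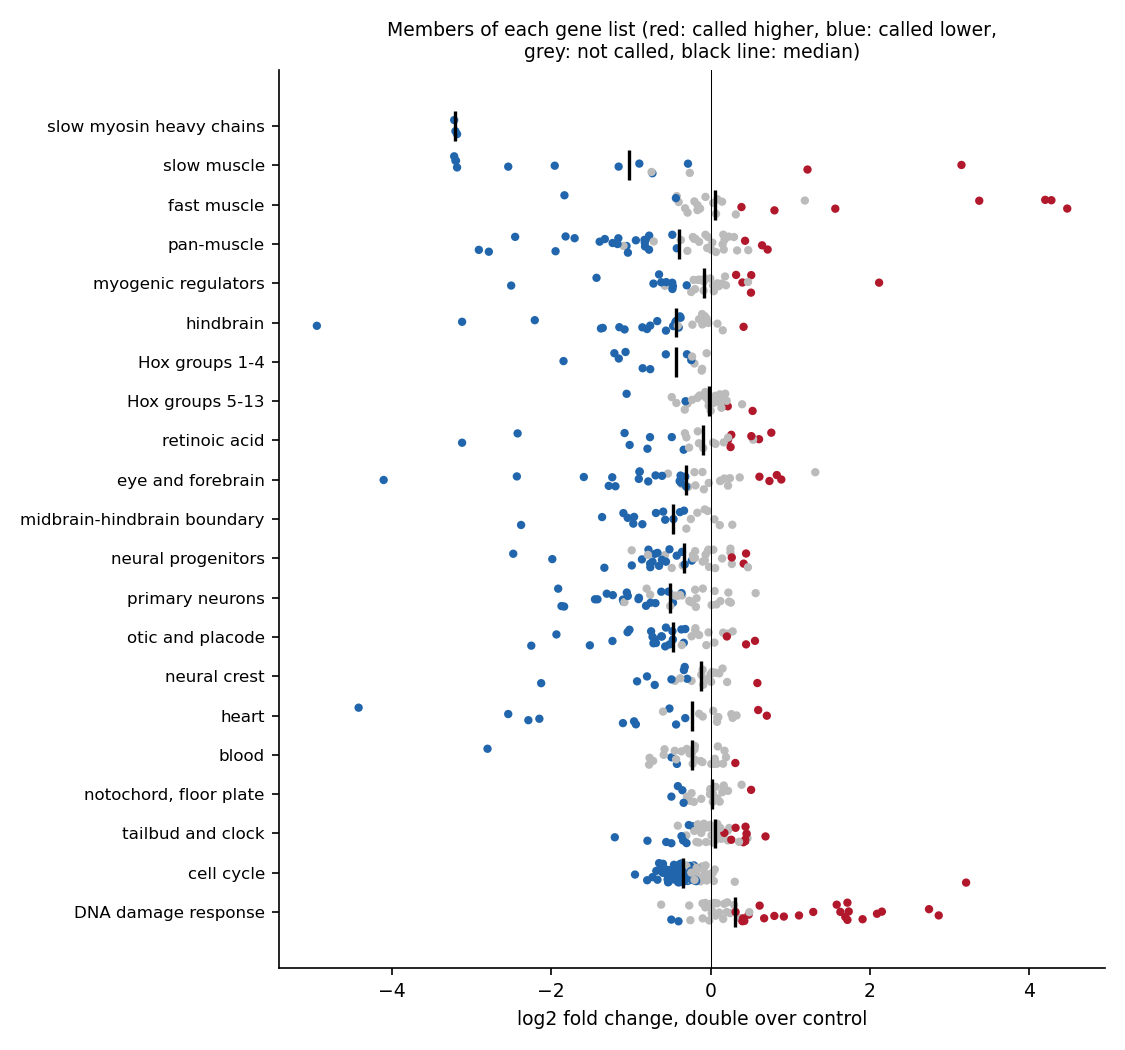
Each point is a member of a gene list, placed by its log2 fold change, double over control, and coloured red when called higher, blue when called lower and grey otherwise, with a black line at the median of the list. Over the lists drawn, which leave out the fast myosin heavy chains as a list of their own, the medians run from -3.20 for the slow myosin heavy chains to 0.30 for the DNA damage list, and fast muscle, tailbud and notochord lists have medians near 0.

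Many genes of the DNA damage response, which halts division and can start apoptosis, were higher. The list held 48 genes tested, of which 22 rose and 2 fell (12 and 0 without the set), with a median of 0.30. ccng1 (ENSDARG00000076667), the cyclin G1 gene, had 2245, 2433 and 2333 CPM in double embryos, against 449, 1009 and 548 CPM in controls (log2 fold change 1.91, SE 0.18, edgeR adjusted p = 9.95e-06). casp8, for an initiator caspase, had 58.0, 74.5 and 44.2 CPM in double embryos and 4.42, 17.3 and 6.93 CPM in controls (log2 fold change 2.74, SE 0.22, edgeR adjusted p = 2.81e-06). phlda3, a gene of the same response, had 74.0, 66.0 and 57.5 CPM in double embryos, against 6.38, 16.99 and 5.98 CPM in controls (log2 fold change 2.86, SE 0.28, edgeR adjusted p = 1.30e-05). In these 3 genes the groups did not overlap, and the control of set B was the highest of the controls. It was the highest control in 17 of the 22 members that rose, against 36.2% of all genes tested. Its part in the result was not tested, and without it the list had 19 members higher. Other rises were bbc3 at 2.15, foxo3b at 2.09, cdkn1a at 1.72, mdm2 at 1.69 and sesn1 at 1.58, where bbc3 encodes the apoptosis inducer Puma, cdkn1a the cell cycle inhibitor p21 and mdm2 a ubiquitin ligase. Against prdm1 mutants 22 members were higher and 2 lower in double embryos, where 7.22% and 8.98% of all genes were. Against pbx2/4 morphants 0 were higher and 0 lower by edgeR, with 1 and 1 at an unadjusted p under 0.05, where 0.695% and 0.497% of all genes were called.

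Cell cycle genes were lower by small amounts. Of 103 tested, 74 fell and 1 rose with the set, with a median of -0.35. Without the set 5 fell and 1 rose, and 42 to 72 fell when 1 library or 1 set was left out. The replication licensing gene mcm5 had 204, 194 and 235 CPM in double embryos and 371, 366 and 359 CPM in controls (log2 fold change -0.80, SE 0.07, edgeR adjusted p = 9.89e-06). Every double library was below every control. mcm3 fell by 0.59, the clamp loader gene rfc1 by 0.95 and INCENP, of the chromosomal passenger complex, by 0.52. The mitotic kinase gene cdk1 fell by 0.34 and top2a by 0.44, both called only with the set. The gene that rose was RBL2 (ENSDARG00000045636), of the retinoblastoma family, with 146, 103 and 64.8 CPM in double embryos, against 8.13, 21.1 and 6.61 CPM in controls (log2 fold change 3.21, SE 0.28, edgeR adjusted p = 5.07e-06).

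Several genes of secretion, transport and signalling moved by large amounts. agr2 (ENSDARG00000070480), for a disulfide isomerase of secretory cells, had 82.2, 77.0 and 175 CPM in double embryos and 2.47, 3.67 and 4.60 CPM in controls (log2 fold change 4.98, SE 0.18, edgeR adjusted p = 1.77e-09). Its lowest double library stood far above its highest control, but such separation was a condition for naming the genes of largest change. p2rx1, for an ATP-gated ion channel, had 6.27, 5.55 and 8.58 CPM in double embryos, against 0.309, 0.344 and 0.189 CPM in controls (log2 fold change 4.67, SE 0.35, edgeR adjusted p = 1.40e-06). For agr2 and p2rx1 the differences from prdm1 mutants were -0.33 and 0.29 (edgeR adjusted p = 0.0770 and 0.373). The Wnt agonist gene rspo1 had 11.7, 9.22 and 9.39 CPM in double embryos and 0.823, 1.38 and 0.630 CPM in controls (log2 fold change 3.49, SE 0.30, edgeR adjusted p = 4.98e-06). atxn1b, an ataxin gene, and lnx1, a ubiquitin ligase gene, rose by 3.26 and 2.76. Among the falls, TNS1 (2 of 2), a tensin gene, had 1.31, 0.943 and 1.77 CPM in double embryos and 9.46, 8.38 and 10.6 CPM in controls (log2 fold change -2.78, SE 0.21, edgeR adjusted p = 1.67e-06). slc4a4a (ENSDARG00000013730), a bicarbonate cotransporter gene of kidney and other epithelia, had 25.2, 25.6 and 24.3 CPM in double embryos, against 57.8, 42.2 and 54.2 CPM in controls (log2 fold change -1.04, SE 0.09, edgeR adjusted p = 4.52e-06). For slc4a4a the double libraries were above prdm1 mutants, which had 20.5, 17.1 and 17.9 CPM, by 0.43 on the log2 scale (edgeR adjusted p = 0.00763). The Wnt antagonist gene dkk2 fell by 3.42, and the gene named MCF2L (2 of 2) by 2.35.

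**Figure D5:**
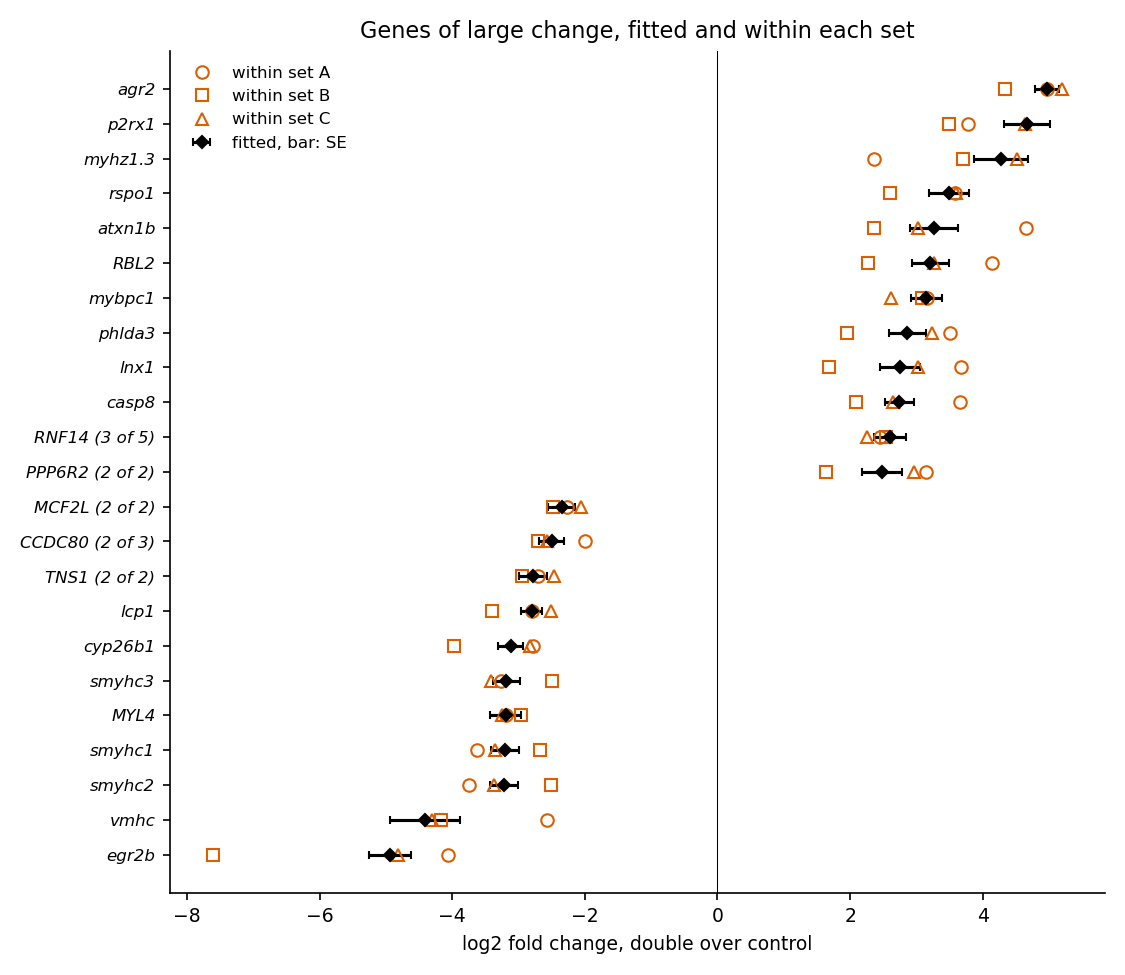
Fitted log2 fold changes, double over control, of genes with the largest rises and falls among called genes of at least 5 CPM whose groups did not overlap, as black diamonds with their SE, and the values within sets A, B and C as open symbols. Each gene lies on the same side of 0 in all 3 sets, which follows from choosing genes whose groups did not overlap. The most distant point is egr2b of set B.

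The remaining lists moved in both directions, and several counts were near the shares of all genes, 9.31% higher and 10.8% lower. Differences from those shares were not tested. Of 26 notochord and floor plate genes, 1 rose and 4 fell (median 0.02). Of 52 tailbud and segmentation clock genes, 9 rose and 9 fell (median 0.06), and cdx1a, a caudal-type homeobox gene, was the deepest of the falls at -1.20. Of 30 Hedgehog genes, 4 rose and 4 fell. Of 43 Notch genes, 2 rose and 16 fell, of 30 FGF genes 2 and 10, and of 60 Wnt genes 7 and 12. In the epidermis list 6 of 49 genes rose and 11 fell, with tp63, the basal keratinocyte regulator, at -0.66 and the plakophilin gene pkp3 at 0.97. In the hatching gland list 2 of 14 rose, agr2 among them, and 3 fell. Of 26 endothelial genes, 1 rose and 4 fell, of 21 endoderm genes 1 and 6, and of 26 pronephros genes 1 and 7. Ribosomal protein genes, at 2 higher and 11 lower of 81, had a median of -0.05. Leaving out 1 library moved some of these counts by over 1.5 times: 3 to 6 ribosomal protein genes fell in any of the 6 fits, 4 tailbud genes rose without the control of set C, and 9 and 10 Notch genes fell without the double library of set A and the control of set B. Likewise 6 FGF genes fell without the control of set A, 4 Wnt genes rose without either library of set A, and 4 and 3 pronephros genes fell without the double library and the control of set C. Without the control of set C, 2 endothelial and 2 notochord genes fell. Without either library of set A or C, 2 Hedgehog genes fell. Without the set at most 1 member of any list in this paragraph was called higher, and at most 3 were called lower.

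Of 16 genes often used as references, 2 rose and 6 fell, none of them without the set, with values from -0.93 (b2m) to 0.46 (gapdh). The call of b2m was lost in 4 of the 6 fits without 1 library. The interferon list had 3 higher and 1 lower of 18, the extracellular matrix and integrin list 20 and 20 of 129, and the Eph and ephrin list 0 and 9 of 29. Over all genes 9.31% were higher and 10.8% lower. Without the set the counts were 1 and 0 for the interferon list, 2 and 5 for the matrix list and 0 and 1 for the Eph list. The medians of these 3 lists were -0.01, -0.004 and -0.11 on the log2 scale. The Eph count higher was 0 by DESeq2 and 1 at an unadjusted p under 0.05, and the matrix count higher was 13 and 10 without the control of set A and of set C.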

How the data were processed

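RNA sequencing of zebrafish embryo pools gave 12 libraries in 4 groups of 3. The authors deposited estimated counts for 31051 gene identifiers with names, not normalised, of which 13.7% were not whole (tolerance 1e-06), and 22.5% of genes tested held such a value. They were rounded before testing. The submitters' processing notes name TopHat 1.4, edgeR and the Zv9 build. No source used here gives the annotation release, the counting method or the strand setting, so reads of antisense and overlapping genes cannot be told apart. For this comparison the authors deposited their own p-values and log fold changes. Over 18068 genes the deposited log2 values, with sign reversed, had a slope of 1.0075 on those computed here (r = 0.998 across genes, which are not replicates), so their base was read as log2.

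Columns carry group words and no replicate number, so each was assigned to a group. In 4 columns the group was read from the letters W and M. Columns fall into sets A, B and C by name form. Deviations from group means correlated at 0.448 to 0.668 for 18 pairs of the same set, so the set was the block. The 36 other pairs correlated at -0.482 to -0.0312. Centring each group pushes these below 0 once pairs of the same set correlate, so they are no separate evidence. What a set stands for is not given in the labels, though the design text names separate egg collections and injections. Within each group the column names of sets B and C start with the same letters and number. The chi-square per gene between those libraries was 33.5 in double embryos and 23.8 in controls. The smallest within either group was 12.2, between the controls of sets A and C, and no libraries were merged.

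All 12 libraries were fitted in edgeR 4.0.16 (R 4.3.3), with 4 groups and the set, TMM scaling and filterByExpr, 18126 genes and 6 residual degrees of freedom. Quasi-likelihood F tests were adjusted by Benjamini-Hochberg, and adjusted p-values come from it unless a sentence names another tool. The SE is the absolute log2 fold change over the square root of F. The common biological coefficient of variation was 0.0754. In counts simulated for this comparison over 17925 genes, 100 genes were changed 2-fold and 100 were changed 4-fold in the double group. Of these changes 69% and 96% were called, and 14 of 179 calls were of unchanged genes. The simulated counts held the set effect in the form the model assumes and far fewer changed genes than were called in the data. These rates therefore need not hold for the data. DESeq2, limma-voom, other scalings and filters, the fit without the block, and fits without a library or set were alternatives.

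The genes compared and the 37 lists were chosen with earlier results of these data known, and 2 lists were trimmed of name mismatches after values were seen. Named genes were the pbx and prdm1 genes with their partners, the 12 of largest change each way among called genes of at least 5 CPM whose groups did not overlap, the 6 most abundant called each way, the 4 of smallest p in each list, and the slow and fast myosin heavy chains (158 genes). These were named after their values were seen: acta1a, actc1b, actn3a, atp2a1, bbc3, cdk1, cdkn1a, chrna1, cntn2, crabp1b, cyp26a1, dlx4b, dok7, drgx, egr2a, elavl4, eng1a, eng1b, foxd3, foxg1a, foxo3b, gbx1, hoxa1a, jph2, lhx2b, lhx9, LMOD3, mcm3, mcm5, mdm2, musk, myf5, myf6, MYH7B (1 of 3), myh7bb, myl10, mylz2, myod1, myog, nkx2.5, rx3, ryr1a, six7, smyd1a, smyd1b, snai2, sox6, tbx20, tbx5a, tlx3b, tnnc2, tnni1b, tnnt2a, tnnt2c, top2a, tpm3, twist3, unc45b and vsx1. Some genes that met these rules are not reported here. No sequences were used here.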

Additional observations from a re-analysis of the deposited data

How the results depend on the processing

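Counts of called genes depended on the set. Paired by set, 1688 genes were higher and 1965 lower, while with no replicate block 154 were higher and 256 lower. DESeq2 called 1113 higher, and a demand for at least 2-fold change left 266 higher and 329 lower. Leaving out 1 library or 1 set gave 545 to 1540 higher and 877 to 1827 lower. The count higher was 969 without the double library of set A, 1123 without that of set C, 1019 and 1039 without the controls of sets A and C, and 545 and 790 without all of set A and set C. The count lower was 877 and 1080 without those sets. The cause was not tested. The summed slow and fast myosin heavy chains kept their direction and call in every alternative, at -3.52 to -2.94 and 3.30 to 4.49 on the log2 scale. Of 240 named genes called, 179 were called in all of the 17 alternatives that kept the set, and 125 were called without it. Over all 3653 genes called, 410 were called without the set. The named genes were chosen from these same data, many for small p or large change, so their stability does not stand for called genes in general. Without 1 library 40 of the 240 named genes lost their call at least once and none changed sign. All 40 were among those not called without the set. In the shallowest library 1 count was worth 0.115 CPM, which limits the precision for genes such as jph2, vmhc and the fast myosin heavy chains.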

Other observations

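Matrix genes and abundant genes added changes of both kinds. col7a1l, a collagen VII gene, had 55.0, 45.6 and 48.6 CPM in double embryos and 149.7, 125 and 124 CPM in controls (log2 fold change -1.42, SE 0.11, edgeR adjusted p = 1.34e-06). thbs4b, for a thrombospondin of tendon attachment sites, had 69.3, 63.4 and 71.5 CPM in double embryos, against 114, 125 and 133 CPM in controls (log2 fold change -0.87, SE 0.10, edgeR adjusted p = 4.51e-05). In both, every double library was below every control. lamb1a, a laminin gene of the notochord sheath and other basement membranes, had 586, 514 and 566 CPM in double embryos and 406, 383 and 425 CPM in controls (log2 fold change 0.45, SE 0.05, edgeR adjusted p = 6.68e-05). loxl4, a lysyl oxidase gene, rose by 2.98 and RNF213 (ENSDARG00000033824), a ubiquitin ligase gene of the interferon list, by 3.15. A second identifier, named rnf213 (ENSDARG00000075710), changed less, at 0.84 to 1.24 over the fits without 1 library or 1 set. Among abundant genes the chaperone gene hsp90ab1 fell by 0.34 and the cytoplasmic actin gene bactin2 fell by 0.28 on the log2 scale, both called only with the set (edgeR adjusted p = 0.207 and 0.339 without it).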
